A study of Mus musculus with 16 samples.

Results

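The enzymes that build coenzyme A were followed in the brains of mice with and without the transporter Slc5a8. They are 7 genes, namely the pantothenate kinases Pank1, Pank2, Pank3 and Pank4, the ligase Ppcs, the decarboxylase Ppcdc and the synthase Coasy. Every non-control probe that carries 1 of these gene names was taken, which gave 9 probes of the 55681 on the array, where 34821 gene names are represented. The group was picked because Ppcdc was strongly lower in deficient brains at both ages, so the genotype differences of Ppcdc are given here as a description with no test.

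RNA of whole brains from male mice, given as C57BL/6J, was hybridised in 1 colour to 16 Agilent arrays. The 4 groups were wild type at 4 months (young), Slc5a8-deficient at 4 months, wild type at 18 months (old) and Slc5a8-deficient at 18 months. Each group had 4 arrays, described as biological replicates by the submitters, and the way in which the deficient line was made is not given in the sources used here. All 8 deficient arrays were on 1 slide and all 8 wild-type arrays on another, so genotype and slide cannot be told apart. The 2 ages of a genotype shared a slide but lay in different rows of it. Young deficient and old wild-type arrays were in row 1, and old deficient and young wild-type arrays in row 2. Age within a genotype, and any change of the genotype difference with age, thus cannot be told apart from slide row.

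Coenzyme A carries acetyl and longer acyl groups through the citric acid cycle, fatty acid synthesis and oxidation, and protein acetylation. Cells make it from pantothenate, vitamin B5. A pantothenate kinase adds a phosphate in the step that is usually limiting, PPCS joins the product to cysteine, PPCDC removes the carboxyl group of that cysteine with the help of a flavin, and COASY carries out the closing steps by adding an adenosine nucleotide and then a phosphate. In people, loss of PANK2 or of COASY causes a brain disease with iron deposits in the basal ganglia, which is why the pathway is studied in the brain. Slc5a8 itself brings small monocarboxylates, lactate and ketone bodies among them, into cells together with sodium.

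Between 58.4% and 66.0% of spots per array were well above background, and correlations between arrays lay between 0.963 and 0.994. The single Slc5a8 probe was well above background on 0 of 16 arrays, with levels from -7.90 to -6.34, and so could not check the genotype labels. Array 1 of the young deficient group was the dimmest, with a 75th percentile of 624 intensity units against 772 to 1346 on the other 15. Array 4 of the old deficient group stood apart at Ppcdc and at other chromosome 9 probes, as described below. Some of the values that rest on it are also given without it. All marker genes listed for neurons, astrocytes, oligodendrocytes, microglia and endothelium were measured and were well above background on all 16 arrays. Their mean levels, each relative to its mean over the arrays, lay between -0.26 and 0.26 in every group. Microglial markers were at 0.14 to 0.31 in old wild type against -0.18 to -0.06 in old deficient brains, and oligodendrocyte markers at 0.05 to 0.44 in young deficient against -0.40 to -0.14 in old deficient brains. Markers of tissue at the edge of the dissection varied more. Those of olfactory epithelium (3 of 4 measured) averaged 1.72 on this log2 scale in young wild type (range 1.54 to 2.06), 0.50 in young deficient (0.24 to 0.70), -0.77 in old wild type (-1.66 to 0.45) and -1.45 in old deficient brains (-1.56 to -1.41). Those of spinal cord and hindbrain (4 of 5 measured, none of which was detected on every array) averaged 1.05 in young wild type (-0.45 to 2.19), 2.68 in young deficient (1.502 to 3.36), -3.59 in old wild type (-4.52 to -1.53) and -0.13 in old deficient brains (-0.99 to 1.14). Pituitary markers (3 of 5 measured) averaged 2.77, 1.31, -2.77 and -1.31 in the same order, with arrays from -4.92 to 6.38, and choroid plexus markers (5 of 5 measured) 0.65, -0.12, -0.14 and -0.39. Red blood cell markers (4 of 4 measured) averaged -1.69 in old deficient brains (-2.63 to -0.19) and 0.39 to 0.67 in the other 3 groups. Their part in the results was not tested.

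The probes that the findings rest on are shown by their opening 30 of 60 bases, 5′ to 3′, as the scanner files give them, with NCBI37 (mm9) coordinates from the same files. Ppcdc is read by 1 spot, whose probe lies at chr9:57261009-57261068 on the minus strand, from base 2153 of its RefSeq transcript. In this probe and those for Pank1, capitals mark G and C.
Ppcdc A_52_P409457: tGtGtGaaCtCaaCataCaaCtttaaaatt
Pank1 A_51_P263591: GGtCGaGatatCaGttaGaaataatGGtCt
Pank1 A_51_P123320: tCaataaGCaaattCtCaCaGatCtGaGCC
The Ppcdc probe held 18 G or C in its 60 bases, where the median share over all probes was 43.3%, and 1.89% of all probes had as low a share or lower. The Pank1 probe A_51_P263591 lies at chr19:34885801-34885860 on the minus strand and is assigned in the files to the Pank1 RefSeq transcript. The other, A_51_P123320, was designed on a cDNA clone and lies at chr19:34955719-34955778 on the plus strand, the opposite strand to that of the first. Whether it reads the Pank1 transcript was not tested.
The Coasy probes, on the plus strand of chromosome 11, are shown because they are not independent measurements. They are 2 bases apart and share 58 bases, and capitals mark the shared bases.
Coasy A_55_P2117843: gtGTTGATGGGTTTGGTGAAGTCTGGACCC
Coasy A_66_P136099: GTTGATGGGTTTGGTGAAGTCTGGACCCAG
The longest run shared by probes of different kinases was 7 bases, and by probes of any different members 8 bases.

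Of the 9 probes, 8 passed the filter on dim probes (4 of 4 arrays of some group well above background) and entered the fit, which held 33074 probes. Levels are log2 intensities relative to the array's 75th percentile and are compared only within a probe. Where all arrays of a group lay above or below those of another, this is a description. The share of all probes that separate in this way is not given here. A probe was called where limma's moderated test gave an adjusted p under 0.05 over all 33074 probes (Benjamini-Hochberg). In whole-brain RNA, fewer cells of a type and less RNA per cell cannot be told apart.

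Ppcdc, the decarboxylase, was well above background in all 8 wild-type brains and in 1 of 8 deficient brains. In young wild type its levels were -3.95, -3.49, -4.08 and -4.61, and in young deficient brains -7.20, -7.30, -7.48 and -8.15. All 4 young deficient arrays lay below every young wild-type array, and none of them was well above background. In old wild type the levels were -3.95, -4.46, -3.89 and -4.00, and in old deficient brains -7.82, -7.77, -7.51 and -4.92. The old groups did not overlap either, but array 4 of the old deficient group lay far nearer to the wild type than the other 3 and was the only deficient array well above background. In linear units these levels were dim: processed intensities of 33.7 to 120 in wild type against 4.23 to 7.37 on the 7 lower deficient arrays and 35.5 on array 4.

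**Figure D1:**
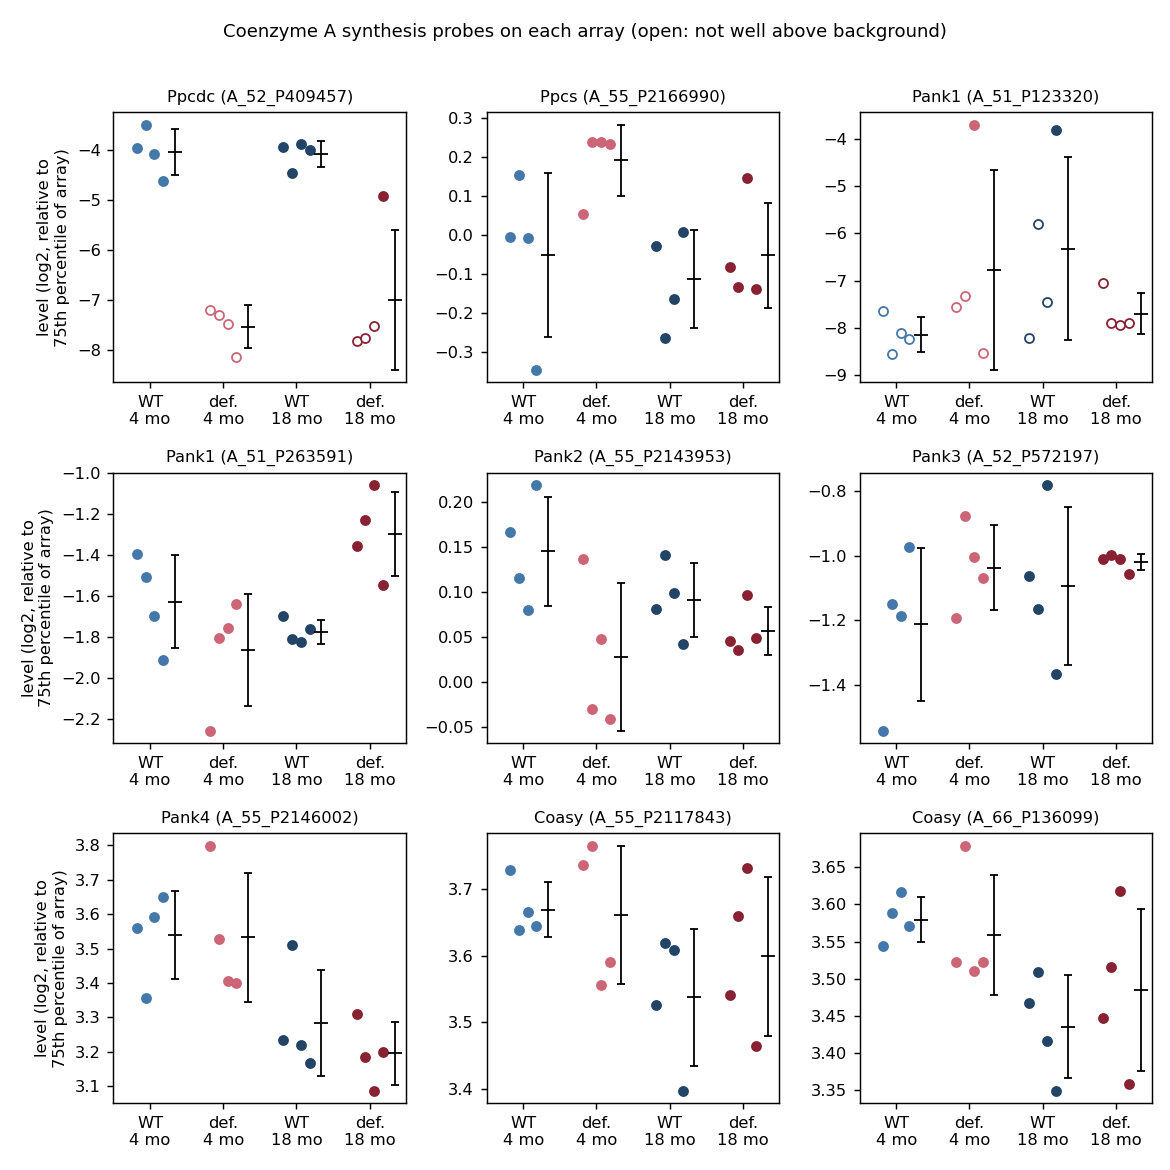
Level of each of the 9 probes on each of the 16 arrays (log2, relative to the array's 75th percentile; each panel has its own axis), with the group mean ± SD (n = 4) in black beside the points. Filled points were well above background and open points were not. Ppcdc lies between -4.61 and -3.49 in wild type and at or below -4.92 in deficient brains, and the other members' groups are much closer together, apart from the dim Pank1 clone probe.

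The fitted Ppcdc difference, deficient minus wild type, was -3.50 ± 0.50 (SE) at 4 months and -2.93 ± 0.50 at 18 months. Without array 4 of the old deficient group the fitted value at 18 months was -3.63, but the remaining 3 arrays were not well above background and so gave only an upper limit. The same holds for all 4 young deficient arrays, so the young fold is a bound on this scale of processed intensities: Ppcdc was at least 3.97-fold lower, from the young wild-type mean of -4.03 against a floor of -6.02, the mean over the young deficient arrays of the lowest signal well above background. With the 1st percentile of such signals as the floor, it was at least 3.15-fold lower. At 18 months, where 1 of 4 deficient arrays measured it, the same calculations gave 4.25-fold and 2.74-fold. These bounds do not carry over to other ways of handling background, under which the differences were smaller. With normexp background correction it was -0.83 at 4 months and -0.71 at 18 months, and in the authors' deposited value table -1.27 and -0.90.

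With age, Ppcdc levels overlapped in wild type, with an old minus young difference of -0.04 ± 0.50 (95% interval -1.10 to 1.02; limma adjusted p = 0.9999). The interval leaves room for age differences of up to about 1 log2 unit. Its width rests on a spread pooled over all groups. Without array 4 of the old deficient group the SE of the same difference was 0.24. In deficient brains no age difference could be read, since 0 of 4 young and 1 of 4 old arrays were well above background. The fitted value there, 0.53, was -0.17 without array 4 of the old group, when none of the arrays compared measured Ppcdc.

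The other 7 probes in the fit, for the 6 remaining enzymes, were well above background on all 16 arrays. None of them was called in any of the 7 contrasts. Across all probes the share called was 1.43% for genotype at 4 months, 1.35% at 18 months and 3.12% averaged over ages. It was 0.375% for age in wild type, 2.1% for age in deficient brains, 1.45% for age averaged over genotypes and 0.236% for the interaction. At an unadjusted p under 0.05, 0, 1 and 0 of the 7 probes passed in the genotype contrasts in that order, 1, 2 and 1 in the age contrasts, and 1 in the interaction. Of all probes, 17.2%, 9.996% and 15.2% passed in the same genotype contrasts. In the age contrasts 6.30%, 20.4% and 14.6% of all probes passed, and in the interaction 10.8%. Their largest absolute genotype difference was 0.24 at 4 months and 0.48 at 18 months. Their median difference was -0.01 at 4 months and 0.06 at 18 months, beside 0.02 and 0.01 over all probes.

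**Figure D2:**
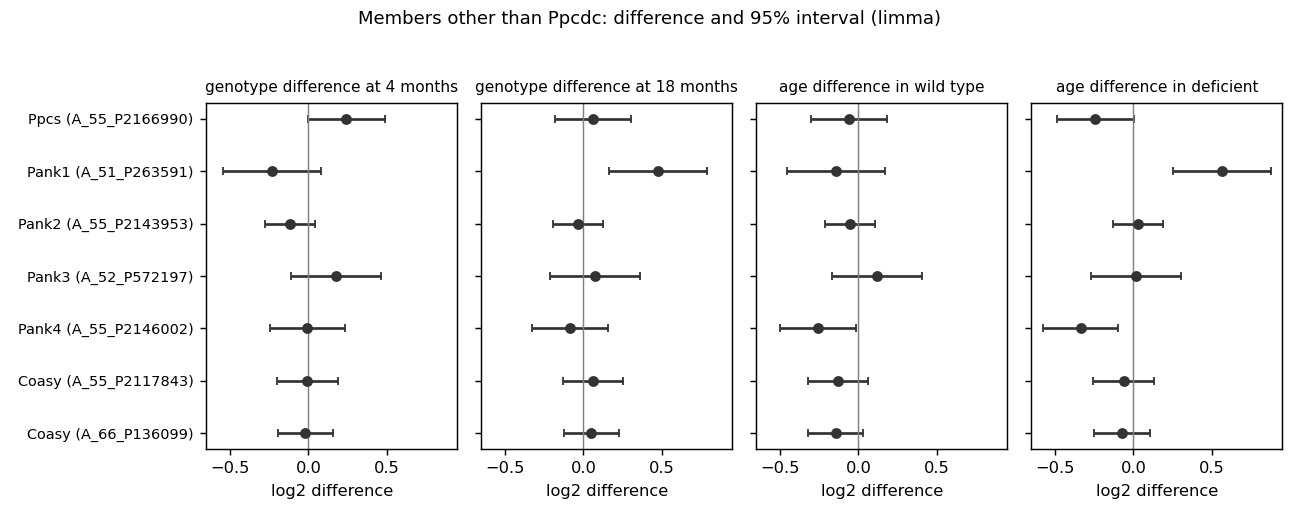
Log2 difference with its 95% interval from limma for the 7 probes of the members other than Ppcdc, in the genotype contrasts (deficient minus wild type) and the age contrasts (old minus young). The Pank1 probe has the largest differences, 0.48 for genotype at 18 months and 0.57 for age in deficient brains, and 0 of the 7 probes were called.

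Among the kinases, Pank1, a kinase best known from liver, had the largest differences after Ppcdc. In young wild type its RefSeq probe read -1.40, -1.51, -1.70 and -1.91, and in old wild type -1.70, -1.81, -1.82 and -1.76. In young deficient brains it read -2.26, -1.80, -1.75 and -1.64, and in old deficient brains -1.36, -1.23, -1.06 and -1.54. All 4 old deficient arrays lay above all 4 young deficient and above all 4 old wild-type arrays, while the wild-type ages overlapped. Small p-values were common in these contrasts. At an unadjusted p under 0.05, 20.4% of all probes passed for age in deficient brains and 9.996% for genotype at 18 months. The age difference in deficient brains was 0.57 ± 0.15 (95% interval 0.25 to 0.88), which missed the threshold (limma adjusted p = 0.0586). It passed, barely, where the probes of a gene were averaged before the test (limma adjusted p = 0.0496). Pank1 had only 1 probe in the fit, so no second Pank1 probe stands behind that pass. Without array 1 of the young deficient group, the dimmest array, the difference was 0.43 and the adjusted p was 0.119. The genotype difference at 18 months was 0.48 ± 0.15 (limma adjusted p = 0.169) and at 4 months -0.24 ± 0.15 (adjusted p = 0.427). The interaction, the genotype difference at 18 months minus that at 4 months, was 0.71 ± 0.21 (0.27 to 1.15; limma adjusted p = 0.239).

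The clone probe at the Pank1 locus did not enter the fit. It was well above background on 2 of 16 arrays, at -3.70 on array 3 of the young deficient group and at -3.82 on array 4 of the old wild-type group, and lay between -8.56 and -5.80 on the other 14. Exact two-sided permutation tests gave p = 0.2 for genotype at 4 months, 0.257 at 18 months, 0.0857 for age in wild type and 0.629 for age in deficient brains, where the smallest p that 4 against 4 arrays allow is 0.0286. No group had more than 1 array well above background. The tests thus mostly compare readings near background and cannot tell whether Pank1 RNA differed.

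Pank4, which resembles the kinases but carries a phosphatase domain and lacks kinase activity in mammals, was lower on average in old brains of both genotypes without passing the test. Its levels in wild type were 3.56, 3.36, 3.59 and 3.65 at 4 months and 3.23, 3.51, 3.22 and 3.17 at 18 months. In deficient brains they were 3.80, 3.53, 3.40 and 3.40 at 4 months and 3.31, 3.19, 3.09 and 3.20 at 18 months. The old deficient arrays lay below all young deficient arrays, and in wild type 1 old array, array 2, lay within the young range. The difference was -0.26 ± 0.11 in wild type (limma adjusted p = 0.736), -0.34 ± 0.11 in deficient brains (adjusted p = 0.122) and -0.30 ± 0.08 averaged over genotypes (95% interval -0.47 to -0.13; adjusted p = 0.0885). Between genotypes Pank4 differed by -0.01 ± 0.11 at 4 months and -0.09 ± 0.11 at 18 months, with 95% intervals of -0.25 to 0.24 and -0.33 to 0.15.

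Pank2, the kinase whose human form is found in mitochondria, had the narrowest range of the 8 probes in the fit. Its levels ran from -0.04 to 0.22 over all 16 arrays, with group means of 0.15 ± 0.06 (SD, n = 4) in young wild type, 0.03 ± 0.08 in young deficient, 0.09 ± 0.04 in old wild type and 0.06 ± 0.03 in old deficient brains. The genotype difference was -0.12 ± 0.08 (SE) at 4 months (95% interval -0.28 to 0.04) and -0.03 ± 0.08 at 18 months (-0.20 to 0.13). Pank3, a cytosolic kinase, had group means of -1.21 ± 0.24 (SD, n = 4) in young wild type, -1.04 ± 0.13 in young deficient, -1.09 ± 0.24 in old wild type and -1.02 ± 0.03 in old deficient brains. Its groups overlapped in every comparison, and its genotype difference was 0.18 ± 0.13 (SE) at 4 months (-0.11 to 0.46) and 0.07 ± 0.13 at 18 months (-0.21 to 0.36).

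Ppcs, the ligase just upstream of Ppcdc, had group means of -0.05 ± 0.21 (SD, n = 4) in young wild type, 0.19 ± 0.09 in young deficient, -0.11 ± 0.13 in old wild type and -0.05 ± 0.13 in old deficient brains. On 3 young deficient arrays it lay at 0.23 to 0.24, above every young wild-type array, while array 1 at 0.05 lay within the wild-type range of -0.35 to 0.15. The genotype difference was 0.24 ± 0.11 (SE) at 4 months (95% interval -0.0024 to 0.49; limma adjusted p = 0.295) and 0.06 ± 0.11 at 18 months (-0.18 to 0.30; adjusted p = 0.944). The age difference in deficient brains was -0.24 ± 0.11 (adjusted p = 0.246).

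Coasy, the enzyme of the closing steps, differed little between genotypes on either probe. On A_55_P2117843 its group means were 3.67 ± 0.04 (SD, n = 4) in young wild type, 3.66 ± 0.10 in young deficient, 3.54 ± 0.10 in old wild type and 3.60 ± 0.12 in old deficient brains. The genotype difference was -0.01 ± 0.09 (SE) at 4 months (95% interval -0.20 to 0.19) and 0.06 ± 0.09 at 18 months (-0.13 to 0.25). The overlapping probe gave -0.02 ± 0.08 and 0.05 ± 0.08. In wild type every old array lay below every young array on both probes, with age differences of -0.13 ± 0.09 (limma adjusted p = 0.9999) and -0.14 ± 0.08 (adjusted p = 0.951).

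The wider use of coenzyme A was read from 8 gene lists. They cover its transport and breakdown, proteins that take up its phosphopantetheine arm, the supply of acetyl-CoA, acyl-CoA synthetases, acyl-CoA thioesterases, flavin cofactors, cysteine supply, and other genes of the human brain iron diseases. Of 67 genes listed, 64 had a probe in the fit, with 90 probes in all, and Vnn1, Vnn3 and Acot12 had none. In each of the 7 contrasts 0 of the 90 probes were called by limma, beside the shares of all probes given above. At an unadjusted p under 0.05, 19 passed for genotype at 4 months (21.1%, beside 17.2% of all probes), 7 at 18 months (7.78% beside 9.996%) and 11 averaged over ages (12.2% beside 15.2%). For age, 4 passed in wild type (4.44% beside 6.30%) and 18 in deficient brains (20% beside 20.4%). The count of called list probes was also 0 with normexp, quantile normalization, the deposited table, the replicate block and both other filters.

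The genes of each list with the smallest p for genotype averaged over ages are named here, and among them the smallest p belonged to acetyl-CoA supply. At 18 months alone, the smallest adjusted p of any list probe was that of the thioesterase Acot1 (limma adjusted p = 0.144). Dlat, the acetyl-transferring subunit of pyruvate dehydrogenase, differed by -0.30 ± 0.09 averaged over ages (limma adjusted p = 0.0987). Dld, the dihydrolipoamide dehydrogenase of the same complex, differed by -0.31 ± 0.11 on 1 probe (adjusted p = 0.149) and -0.17 ± 0.07 on the other (adjusted p = 0.271). This list's 18 probes had a median of 0.02, the same as all probes to 2 decimals, with 8 below 0. Among the transporters, Slc25a42, which carries coenzyme A into mitochondria, differed by 0.27 ± 0.10 (adjusted p = 0.189) and its relative Slc25a16 by -0.23 ± 0.14 (adjusted p = 0.482), with a list median of -0.0019 over 10 probes.

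The thioesterases, which release coenzyme A from acyl groups, had a median of 0.01 over 14 probes. Acot10 differed by -0.34 ± 0.13 and Acot9 by -0.22 ± 0.09 (limma adjusted p = 0.182 and 0.259). The synthetases, which attach it, had a median of 0.02 over 12 probes. Acsbg1, a synthetase of glia and steroid-making cells, differed by 0.14 ± 0.07 for genotype (adjusted p = 0.379) and by -0.39 ± 0.10 for age in deficient brains (adjusted p = 0.0606), the smallest adjusted p of any list probe in the 7 contrasts. Acsf2 differed by 0.33 ± 0.16 on 1 probe and 0.04 ± 0.11 on the other.

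Cofactors of the Ppcs and Ppcdc steps did not pass either. Riboflavin kinase, Rfk, which makes the flavin that the decarboxylase binds, differed by -0.09 ± 0.08 averaged over ages, and the riboflavin transporter Slc52a2 by 0.12 ± 0.12 (limma adjusted p = 0.68 and 0.726). For cysteine supply, Cbs differed by 0.18 ± 0.10 and the cystine exchanger Slc7a11 by -0.25 ± 0.17 (adjusted p = 0.396 and 0.553). Among proteins that carry the phosphopantetheine arm, Ndufab1, the mitochondrial acyl carrier protein, differed by 0.08 ± 0.08 and 0.11 ± 0.06 on its 2 probes, and Aasdh by 0.14 ± 0.12 and 0.21 ± 0.13. Of the brain iron genes, the ferritin light chain Ftl1 differed by -0.44 ± 0.15 and -0.19 ± 0.08 on its 2 probes (adjusted p = 0.158 and 0.286).

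The surroundings of each member on its chromosome were read next. Within 1 Mb of the Ppcdc probe lay 59 other probes of the fit, and 2 of them (3.39%, beside 3.12% of all probes) were called for genotype averaged over ages. Rpp25, a subunit of ribonuclease P and MRP, lies 92.0 kb from Ppcdc. Its levels were 1.13, 0.86, 1.03 and 1.28 in young wild type and 0.07, -0.58, -0.59 and -0.79 in young deficient brains. In old wild type they were 1.40, 1.43, 1.02 and 1.35 and in old deficient brains -0.52, -0.63, -0.64 and 0.45. The groups did not overlap at either age, and the highest old deficient array was again array 4. Rpp25 was lower in deficient brains, with differences of -1.55 ± 0.23 at 4 months and -1.64 ± 0.23 at 18 months (limma adjusted p = 0.00396 and 0.00141), and -1.90 ± 0.18 at 18 months without that array.

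The other called neighbour, the DNA repair glycosylase Neil1, lies 270 kb away on the other side and rose by 0.31 ± 0.06 on 1 probe (limma adjusted p = 0.00585), while its other probe gave 0.33 ± 0.11 (adjusted p = 0.144). Between Ppcdc and Rpp25 lies Scamp5, a secretory vesicle protein, at 28.7 kb, which differed by 0.11 ± 0.06 (adjusted p = 0.422). Commd4, on the Neil1 side 258 kb from Ppcdc, differed by 0.05 ± 0.12. The median over the 59 neighbours was 0.02, as over all probes.

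**Figure D3:**
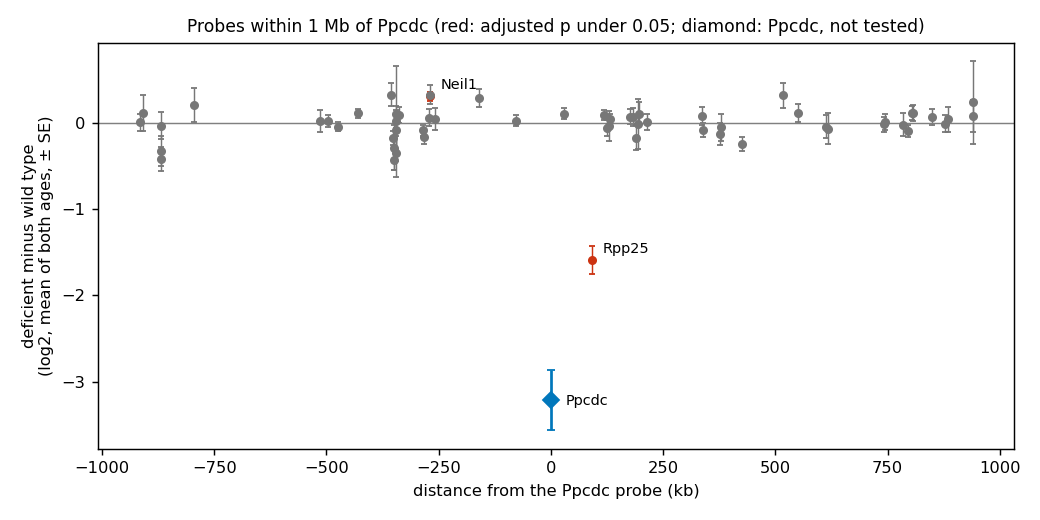
Genotype difference (deficient minus wild type, log2, averaged over ages, ± SE) of the 59 probes within 1 Mb of the Ppcdc probe against their distance in kb. Ppcdc, the blue diamond, lies at -3.22 and was not tested, the called probes of Rpp25 (-1.59) and Neil1 (0.31) are red, and the 57 uncalled probes lie between -0.42 and 0.33.

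Near the other members, called genotype differences averaged over ages numbered 2 of 57 probes around Ppcs, 0 of 16 around Pank1, 2 of 68 around Pank2, 0 of 7 around Pank3, 2 of 81 around Pank4 and 1 of 101 around Coasy, which is at most 3.51%, beside 3.12% of all probes. The largest share around any member was 1.98% at 4 months (Coasy), beside 1.43%, and 1.69% at 18 months (Ppcdc), beside 1.35%. For age in deficient brains the shares were 5.88% around Pank2, 3.70% around Pank4, 1.98% around Coasy and 1.75% around Ppcs, beside 2.1%. The nearest called gene to Coasy was Naglu, a lysosomal enzyme of heparan sulfate breakdown, 9.24 kb away. It was higher in deficient brains by 0.57 ± 0.12 at 4 months and fell with age in deficient brains by 0.52 ± 0.12 (limma adjusted p = 0.0339 and 0.0427). These calls were lost on leaving out any of 9 and of 11 single arrays, with adjusted p up to 0.0902 (without array 2 of wild type at 4 months) and 0.141 (without array 2 of the old deficient group). Farther from Coasy, Mpp3, a membrane scaffold protein, was higher in deficient brains by 0.55 ± 0.12 averaged over ages on 1 of its 2 probes (limma adjusted p = 0.0213), and the epithelial keratin Krt19 fell with age by 0.80 ± 0.13 averaged over genotypes (limma adjusted p = 0.00416). With normexp the Krt19 difference was -0.29 and was not called. Of the nearest genes, Hsd17b1, Mlx and Psmc3ip differed by -0.12 ± 0.18, -0.03 ± 0.13 and 0.02 ± 0.07 and were not called.

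The Notch target Hes5, 18.6 kb from Pank4, was lower in deficient brains at 18 months, with a difference of -0.87 ± 0.19 (limma adjusted p = 0.0352). Leaving out any of 9 single arrays ended this call, with an adjusted p of 0.118 without array 4 of the old deficient group. Mmel1, a membrane metalloprotease 85.4 kb from Pank4, was higher by 0.54 ± 0.13 averaged over ages (limma adjusted p = 0.0432). Leaving out any of 13 single arrays ended this call, with an adjusted p of 0.0887 without array 2 of wild type at 4 months. Morn1 fell with age in deficient brains by 0.83 ± 0.20 (limma adjusted p = 0.0496). Its call ended on leaving out any of 15 of the 16 arrays, with an adjusted p of 0.156 without array 2 of the old deficient group. The genes closest to Pank4 besides Hes5, namely Plch2, Tnfrsf14 and Pex10, were not called.

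Around Ppcs, Ccdc30, 50.8 kb away, was lower in deficient brains at 4 months, with a difference of -0.81 ± 0.15 on 1 of its 3 probes (limma adjusted p = 0.0152, and 0.0514 without array 2 of wild type at 4 months). Wdr65, 864 kb away, was lower by -0.77 ± 0.15 averaged over ages (limma adjusted p = 0.00885), and 0 of 16 single arrays ended this call when left out. Ebna1bp2, a protein of ribosome assembly, fell with age in deficient brains by 0.38 ± 0.09 on 1 of its 3 probes (limma adjusted p = 0.0484). Leaving out any of 11 single arrays ended this call, with an adjusted p of 0.124 without array 4 of the old deficient group. Zmynd12, Rimkla and Ppih lie nearer to Ppcs and were not called, with -0.60 ± 0.16 for Zmynd12 (limma adjusted p = 0.0551).

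Around Pank2, the membrane transporter Slc4a11 was higher in deficient brains at 18 months by 1.04 ± 0.17 and rose with age in deficient brains by 1.20 ± 0.17 (limma adjusted p = 0.00387 and 0.00262). Smox, the spermine oxidase, fell with age in deficient brains by 0.56 ± 0.10 and 0.80 ± 0.18 on its 2 probes (limma adjusted p = 0.0102 and 0.034). The latter call ended on leaving out any of 6 single arrays, with an adjusted p of 0.0951 without array 4 of the old deficient group. Pced1a was higher in deficient brains by 0.28 ± 0.07 averaged over ages on 1 of its 2 probes (limma adjusted p = 0.0327). Leaving out any of 9 single arrays ended this call, with an adjusted p of 0.0768 without array 2 of the old deficient group. The nearest genes, Mavs, Rnf24 and Ap5s1, were not called, nor were Slit3, Fbll1 and Rars, the nearest to Pank3.

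For age in deficient brains, 4 of the 16 probes around Pank1 were called higher, or 25%, beside 1.17% of all probes called higher. Named among them were the interferon-induced genes Ifit3, 223 kb away, at 1.05 ± 0.13 (limma adjusted p = 0.00139), and Ifit2, 236 kb away, at 0.57 ± 0.12 (adjusted p = 0.0315). Without array 4 of the old deficient group 3 were called, and Ifit2 had an adjusted p of 0.0612, and 0.110 without array 2 of that group. Leaving out any of 6 single arrays ended the Ifit2 call. Ifit1, Slc16a12 and Kif20b, the nearest named genes, were not called. The Ifit genes are a cluster of related neighbours, so these probes are not independent, and the same contrast gave 0.57 for Pank1 itself. Around Ppcdc, 3 of the 59 probes were called lower for age in deficient brains (5.08%, beside 0.934% of all probes called lower). Cyp11a1, Islr and Loxl1 fell by 1.06 ± 0.19, 0.58 ± 0.13 and 0.57 ± 0.14 (limma adjusted p = 0.0122, 0.0364 and 0.0486). Of these, Cyp11a1 alone was still called without array 4 of the old deficient group (adjusted p = 0.0267), but not without array 2 of the same group (adjusted p = 0.0514). Leaving out any of 6 single arrays ended the call of Islr, and any of 11 that of Loxl1.

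The genes whose profile over the 16 arrays was most like that of Ppcdc, by the root mean square of the difference between profiles centred on their own means, also lay on chromosome 9. They were the intraflagellar transport gene Ift46 (0.69), Tmem25 (0.70), the growth factor Nrg4 (0.71), the carotenoid oxygenase Bco2 (0.77) and the protease Tmprss4 (0.94), where the median over the 33049 probes compared was 1.78. Since likeness to Ppcdc fixes their direction, their differences are a description: -2.38 for Ift46, -2.16 for Tmem25, -2.46 for Nrg4, -1.92 for Bco2 and -1.73 for Tmprss4, averaged over ages. Without array 4 of the old deficient group they were -2.54, -2.39, -2.90, -2.13 and -1.92 in the same order. Nrg4 was well above background on 0 of 4 young and 1 of 4 old deficient arrays and Tmprss4 on 1 of 4 at each age, so their values are not measured sizes. Of the 10 nearest probes 9 were on chromosome 9, and of the 20 nearest 12, beside 4.84% of all probes compared. All probes are a loose comparison, since a profile near that of Ppcdc has to be lower in deficient brains. Of the probes with large young genotype differences chosen below, 26 lay between 40 and 60 Mb of chromosome 9. The rest of that chromosome held 7 and all other places 128. Without array 4 of the old deficient group, 8 of the 10 and 11 of the 20 nearest probes were on chromosome 9.

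That array was then set against its group at probes chosen on the young arrays alone, a comparison made after seeing the data. The probes were those called for genotype at 4 months with a difference of at least 1 log2 unit and no overlap between the young groups. Of 26 such probes between 40 and 60 Mb of chromosome 9, Ppcdc and Rpp25 among them, array 4 was the old deficient array nearest to the old wild-type mean in 25, and the other 3 arrays in 0, 1 and 0. On the rest of chromosome 9 it was nearest in 2 of 7, and on all other chromosomes in 32 of 128, or 25%. Of the 26 probes, 20 were lower and 6 higher in young deficient brains. Their median distance from the old wild-type mean, regardless of sign, was 0.79 log2 units for array 4 and 1.52 for the mean of the other 3 arrays. The limits of 40 and 60 Mb were set after seeing the data. Ppcdc was itself chosen on its genotype difference, and array 4 was first picked out at Ppcdc and Rpp25. Ift46, Tmem25, Nrg4, Bco2 and Tmprss4, also among the 26, were named for likeness to Ppcdc over arrays that included array 4. These probes are therefore no separate evidence about that array, and the count without them is not given here. Fxyd2 and Cryab each have more than 1 probe among the 26, so the probes are not independent. The cause was not tested.

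**Figure D4:**
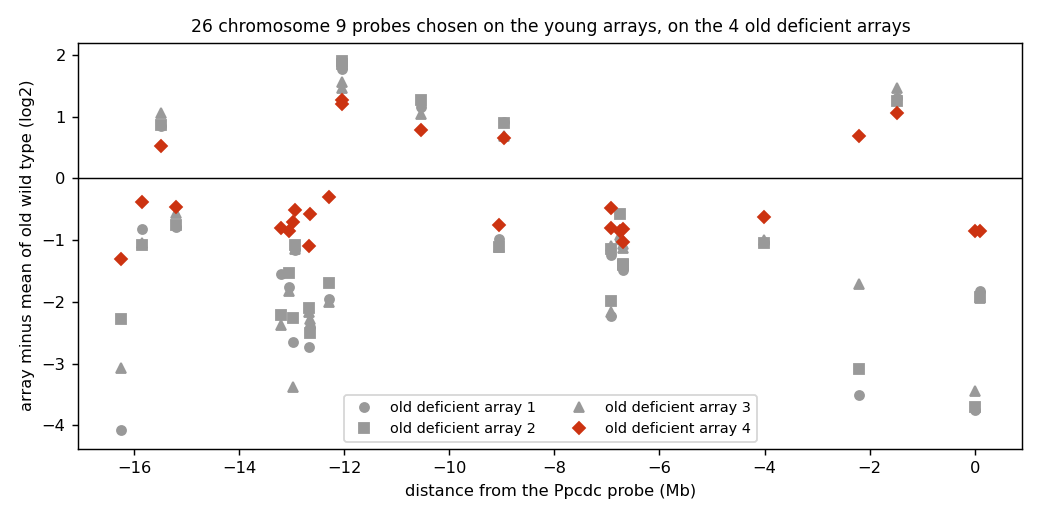
Difference of each old deficient array from the mean of the old wild type (log2) at the 26 chromosome 9 probes chosen on the young arrays, against distance from the Ppcdc probe in Mb. Array 4 (red diamonds) is nearest to 0 at 25 of the 26 probes, and arrays 1 to 3 (grey) mostly lie farther from 0.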

How the data were processed

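Per the file headers, Agilent Feature Extraction 10.7.3.1 produced the deposited spot intensity, subtracting background and detrending, with no scaling between arrays. The authors' deposited value table, on a log2 scale, served as an alternative. How it was scaled and centred is not stated, and the only tool in the submitters' processing notes is limma.

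Control spots and outlier flags (98 to 182 of 59305 spots per array) were left out, and 0 spots were saturated. Spots of a probe were averaged. Levels are log2 of processed intensity minus that of the array's 75th percentile. A probe was kept where some group had it well above background on 4 of 4 arrays (33074 probes). limma 3.58.1 (R 4.3.3) fitted a 4-group means model to all 16 arrays, and p-values were adjusted over all probes kept. The labels give ages under the strain tag and the strain under the age tag. Simulated data with the real spread, checked for genotype at 4 months over 33074 probes, gave back 75% of changes of 1 log2 unit and 95% of 2, with 8 false calls. The simulated noise was independent between probes and between arrays, with no slide effect and no background floor. These figures therefore need not hold for the real arrays.

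The members, gene lists and tests were chosen with earlier results of these data known. Named were every member, the 2 list genes with the smallest genotype p, neighbours within 1 Mb that were called or nearest, and the 5 profiles most like Ppcdc. Names that are only clone numbers were not named. Of the called neighbours, 1 is not reported here. Pairing by replicate number, which is also the slide column of each array, was not modelled in the main fit. Same-numbered arrays of different groups correlated between -0.54 and 0.336 after group means were removed, and other pairs between -0.60 and 0.73. These ranges cannot exclude a pairing. Protein sequences were not used here.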

Additional observations from a re-analysis of the deposited data

Results flagged for a closer look

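Each of 9 probes (the 8 member probes of the fit and Rpp25) was checked for an array far from the other 3 of its group, by the gap to the nearest array over the group's range (Dixon's test at 95%). Of 36 groups 4 were found, where chance gives about 1 in 20. That rate is only a rough guide, since Rpp25 was included as a called neighbour of Ppcdc and the Coasy probes overlap. Ppcdc was at -4.92 on array 4 of the old deficient group, with the other 3 between -7.82 and -7.51. Rpp25 was at 0.45 on the same array, with the other 3 between -0.64 and -0.52. Ppcs was at 0.053 on array 1 of the young deficient group, the dimmest array, with the other 3 between 0.23 and 0.24. The Coasy probe A_66_P136099 was at 3.68 on array 2 of the young deficient group, with the other 3 between 3.51 and 3.52.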

How the results depend on the processing

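Of 1268 recomputed values of the 52 member differences that were tested, 1237 kept their direction and their side of the threshold, 30 turned sign and 1 passed the threshold (Pank1 with age, with probes averaged per gene). That Pank1 value rests on the same single probe as in the main fit. The other 4 differences, the genotype and interaction contrasts of Ppcdc, had no test. Of their 94 recomputed values 87 moved by less than the spread between arrays, 6 moved by more and 1 turned sign. The counts of called probes moved more. For genotype at 4 months (473) they were 312 with normexp, 153 with no filter, 250 with the replicate block, 108 with a fit of the compared groups alone, and 144 to 549 with 1 array left out (lowest without array 1, then 192 without array 2, of the young wild type). At 18 months (448) they were 282 with no filter and 256 to 693 (lowest without array 2 of the old deficient). Averaged over ages (1033) they were 573 with no filter. For age in wild type (124) they were 66, 82 with no filter, and 78 to 164. For age in deficient brains (696) they were 410, 207, 358 with the replicate block, 170 in the compared groups alone, and 176 to 893 (lowest without array 2 of the old deficient). For age averaged over genotypes (481) they were 294, 219, and 238 to 541, and for the interaction (78) 47, 35, 41 with the replicate block, 43 with 1 probe per gene, 44 with probes averaged, and 44 to 103. A window of 2 Mb held 5 called neighbours of Ppcdc in place of 2. Signs turned at values near 0: Pank3 with age in deficient brains (-0.0094 with normexp, -0.0090 in the deposited table), Coasy A_55_P2117843 for genotype averaged (-0.011, deposited) and age in deficient brains (0.0018, quantile), and Coasy A_66_P136099 for genotype averaged (-0.0076 with normexp, -0.0010 with quantile, -0.045 deposited). With 1 array left out the ranges that crossed 0 were, for Ppcdc, -0.23 to 0.14 (age in wild type), -0.17 to 0.80 (age in deficient brains), -0.10 to 0.38 (age averaged) and -0.13 to 0.84 (interaction), the last 3 below 0 without array 4 of the old deficient group. For Ppcs they were -0.0063 to 0.099 (genotype at 18 months) and -0.16 to 0.0071 (age in wild type), and for Pank2 -0.025 to 0.0049 (age averaged). For Pank3 they were -0.016 to 0.18 (genotype at 18 months), -0.035 to 0.070 (age in deficient brains) and -0.19 to 0.0081 (interaction). For Pank4 they were -0.095 to 0.038 (genotype at 4 months) and -0.13 to 0.0074 (interaction), and for Coasy -0.042 to 0.028 (A_55_P2117843, genotype at 4 months) and -0.0078 to 0.035 (A_66_P136099, genotype averaged). The replicate block changed no call among the tested member differences. The cause of these shifts was not tested. Genotype cannot be told apart from slide, nor age within a genotype and the interaction from slide row. The 4 arrays per group limit precision, and Ppcdc in deficient brains is limited by its signal over background.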
